A study of Mus musculus with 6 samples.

Results

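Disease-associated microglia genes are a set of transcripts that microglia raise around amyloid plaques, dying neurons and damaged myelin. A set of 10 was examined here: Apoe, Lpl, Fabp5, Ch25h, Cd9, Cd52, Spp1, Gpnmb, Lgals3 and Cst7. They were listed by gene symbol, with earlier results of these data known. All 10 were found among the 55401 genes of the count table and had enough counts to be tested. Microglia from the brains of MRL/lpr mice, which develop a lupus-like disease and carry the lpr mutation of the death receptor gene Fas, were compared with microglia of MRL/mpj mice, the matching strain without that mutation. The labels give both strains as untreated and 6 weeks old, with 3 libraries for each strain, and the study's methods describe female mice. Brains were perfused and digested with collagenase at 37°C, and cells were enriched on a Percoll gradient and selected with magnetic beads for CD11b, a surface protein that microglia share with other myeloid cells. Neither the labels nor the methods say how many animals went into a library or whether replicates came from separate animals, so the p-values measure the spread between these libraries only.

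In disease, microglia of this kind lower the genes of the resting, homeostatic state and raise genes for lipid uptake, cholesterol export, lysosomal digestion and adhesion. The full shift depends on the surface receptor TREM2 and its signalling partner TYROBP, for which apolipoprotein E is one of the known ligands. The same genes are also high in microglia of early postnatal white matter, in some border macrophages and, for several of them, in monocytes, astrocytes or oligodendrocytes, so none of them defines one cell type by itself.

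Library totals lay between 45481609 and 49846634 counts. The cells carried abundant microglia transcripts in both strains: Csf1r, the receptor for the main survival factor of microglia, averaged 10450 ± 1655 CPM (counts relative to the TMM-scaled library total; SD, n = 3) in MRL/lpr and 9949 ± 214 CPM in MRL/mpj, and Tmem119, a microglia marker, averaged 2403 ± 472 and 2487 ± 94.3 CPM. Fas itself was at 7.64 ± 1.96 CPM in MRL/lpr and 7.96 ± 0.888 CPM in MRL/mpj. The lpr insertion disrupts full-length Fas transcripts, but the strains overlapped in the Fas count of the whole gene, which was not resolved by exon, so it did not serve as a check of the strain labels. Xist, the RNA that silences an X chromosome in female cells, had 8886 to 11319 counts in MRL/lpr and 27 to 38 counts in MRL/mpj. The MRL/mpj counts are at odds with the female mice of the methods, and the labels do not give the sex. In each difference given here, strain and whatever separates the libraries by Xist therefore cannot be told apart.

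The 10 genes did not move together. Apoe, Cd9 and Lpl were lower in MRL/lpr, Cd52 and Lgals3 were higher, and Spp1, Gpnmb, Cst7, Fabp5 and Ch25h did not pass the test (edgeR's quasi-likelihood test, adjusted p under 0.05 with Benjamini-Hochberg adjustment over the 19554 genes tested). Thus 2 of 10 were higher and 3 of 10 lower, 5 of 10 in either direction, while among all genes tested 11.1% were higher and 9.06% lower, 20.2% in either direction. Where the change also had to reach 2-fold, a log2 fold change of 1 in size, 1 was higher (Cd52) and 2 were lower (Apoe and Cd9), against 4.67% and 3.66% of all genes, 8.34% in either direction. The values of the strains did not overlap for 3 genes with higher and 4 with lower values in MRL/lpr, against 19.6% and 19.4% of all genes, or 39% in either direction. The median log2 fold change of the 10 genes was -0.07, and that of all genes was -0.01. When libraries were scaled by their totals only, the median of all genes was -0.13 with 1634 genes higher and 2790 lower in place of 2178 and 1772, but no gene of the set changed sign.

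**Figure D1:**
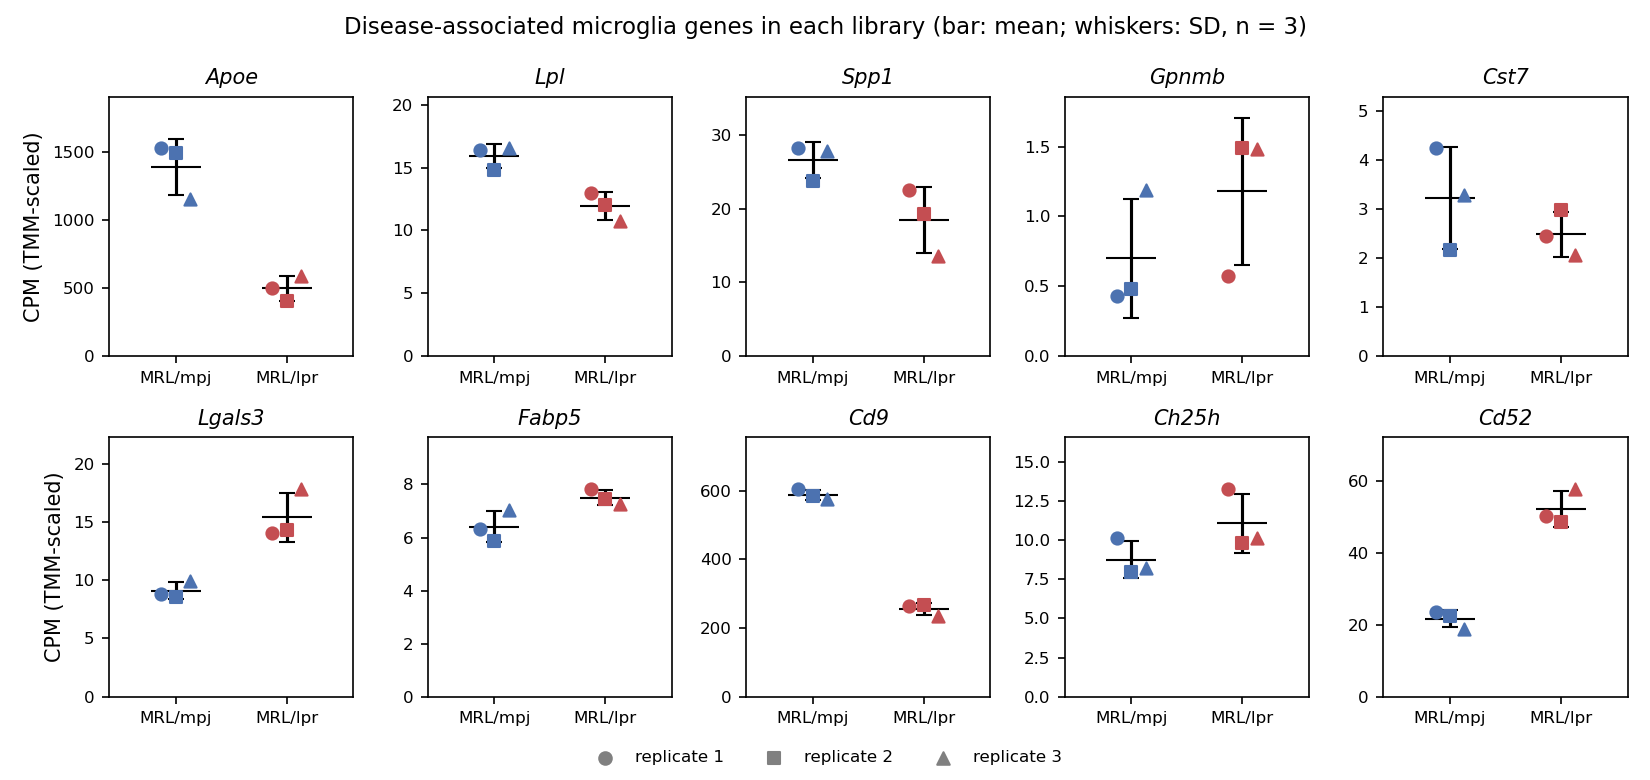
TMM-scaled CPM of the 10 genes in each library, with MRL/mpj in blue and MRL/lpr in red, the replicate given by the symbol, and the mean and SD (n = 3) drawn as a bar with whiskers; each panel has its own linear axis from 0. The strains are separated for Apoe, Lpl, Spp1, Lgals3, Fabp5, Cd9 and Cd52, and overlap for Gpnmb, Cst7 and Ch25h.

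Apoe (ENSMUSG00000002985, chr7:19696109-19699188 on the minus strand, GRCm38, protein coding), which encodes the main carrier of cholesterol and phospholipids between brain cells, had the lowest fold change of the 10. Its level was 501, 406 and 586 CPM in MRL/lpr replicates 1 to 3 and 1526, 1493 and 1151 CPM in MRL/mpj replicates 1 to 3. The highest MRL/lpr library thus lay well under the lowest MRL/mpj library. The means were 498 ± 90.1 and 1390 ± 208 CPM (SD, n = 3), which is 2.79-fold lower in MRL/lpr (95% interval 2.14 to 3.64), with a log2 fold change of -1.48 (SE 0.16, edgeR's quasi-likelihood adjusted p = 0.000783). In a bulk sample, fewer cells that express Apoe and less Apoe RNA per cell cannot be told apart.

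Cd9 (ENSMUSG00000030342, chr6:125460266-125494791, minus strand), a tetraspanin that organizes integrins and other proteins in the plasma membrane, had the smallest standard error of the set. The libraries held 264, 267 and 235 CPM in MRL/lpr and 605, 585 and 577 CPM in MRL/mpj. The MRL/lpr libraries lay far below the MRL/mpj libraries, and within each strain they lay close together. The means of 255 ± 17.4 and 589 ± 14.5 CPM differed 2.31-fold (95% interval 2.07 to 2.56), with a log2 fold change of -1.21 (SE 0.07, edgeR adjusted p = 3.45e-06). Genes annotated on the opposite strand within Cd9 had at most 139 counts in a library, against 9837 to 31100 for Cd9.

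Apoe and Cd9 are the genes of the set that were lower past the fold minimum, and the stretches just upstream of their annotated starts are shown for that reason. They are the GRCm38.p6 reference as given by RefSeq, written 5′ to 3′ on the minus strand, and not the sequence of the MRL strains. The Apoe stretch covers chr7:19699189-19699338 with 150 bases, 59.3% of them G or C, and the Cd9 stretch covers chr6:125494792-125494910 with 119 bases, 67.2% of them G or C. Capitals mark the GC box GGGCGG, the only motif of those searched that occurs in either stretch.
Apoe: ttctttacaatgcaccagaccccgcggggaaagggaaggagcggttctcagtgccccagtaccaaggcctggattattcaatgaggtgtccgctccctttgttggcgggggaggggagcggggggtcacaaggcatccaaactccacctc
Cd9: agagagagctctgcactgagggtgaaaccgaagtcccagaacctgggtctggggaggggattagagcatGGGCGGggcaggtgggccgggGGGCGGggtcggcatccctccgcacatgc
The search covered 250 bases before the start on both strands in RefSeq entries for 7 of the 10 genes (Apoe, Cd9, Spp1, Gpnmb, Cst7, Lgals3 and Ch25h). Of 32851 promoter windows of the same length, 32.7% held a GC box, 12.4% the TATA box TATAAA, 33.8% CCAAT, 23.3% the PU.1 core GAGGAA, 6.75% the AP-1 site TGANTCA, 6.02% the E-box CACGTG and 2.98% an interferon-stimulated response element. RefSeq gives 3 entries for Apoe, of which the stretch above is the one before the start of the annotated gene, 2 for Spp1 and 1 for each of the others. The Cd9 window held 2 GC boxes. The Lgals3 window, which lies before a start inside the annotated gene, held 1 and a CCAAT box. In the Apoe windows, 2 overlapping TATA boxes lay 100 to 91 bases before a start inside the gene, and PU.1 cores began 250 bases before the upstream start, outside the stretch shown, and 132 bases before the other start inside the gene. A window of Spp1 held a TATA box, a CCAAT box and a PU.1 core, and the Ch25h window held a TATA box. The E-box and the AP-1 site occurred in none of the windows of the 7 genes, and the interferon-stimulated element occurred only in a window of Spp1. These matches describe letters, and binding was not measured.

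The other lipid genes of the set gave smaller differences. Lpl (ENSMUSG00000015568, chr8:68880491-68907448, plus strand), the lipase that releases fatty acids from lipoprotein triglycerides, had 611, 566 and 449 counts in MRL/lpr and 845, 739 and 860 counts in MRL/mpj, or means of 11.9 ± 1.13 and 15.9 ± 0.984 CPM. The strains did not overlap, but the gap between the nearest libraries was small. Lpl was 1.33-fold lower in MRL/lpr, with a log2 fold change of -0.42 (SE 0.13, 95% interval -0.70 to -0.13, edgeR adjusted p = 0.0444). This call was narrow: the adjusted p lay between 0.0536 and 0.135 when any 1 of the 6 libraries was left out, with a log2 fold change of -0.48 to -0.34, and between 0.0195 and 0.135 over all alternatives.

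Fabp5 (ENSMUSG00000027533, chr3:10012548-10016607, plus strand), a carrier of fatty acids inside the cell, was at 7.83, 7.44 and 7.25 CPM in MRL/lpr and 6.32, 5.86 and 7.03 CPM in MRL/mpj. All MRL/lpr values lay above all MRL/mpj values, by little. The log2 fold change of 0.23 (SE 0.16, 95% interval -0.13 to 0.58) did not pass the test (edgeR adjusted p = 0.374). Ch25h (ENSMUSG00000050370, chr19:34473778-34475164, minus strand), the enzyme that makes 25-hydroxycholesterol, was at 13.3, 9.79 and 10.2 CPM in MRL/lpr and 10.1, 7.96 and 8.21 CPM in MRL/mpj. The strains overlapped, and the log2 fold change of 0.34 (SE 0.17, 95% interval -0.05 to 0.73) did not pass either (edgeR adjusted p = 0.219). Its value was 0.19 with MRL/lpr replicate 1 left out and 0.45 with MRL/mpj replicate 1 left out, the ends of the range over such fits.

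Cd52 (ENSMUSG00000000682, chr4:134082448-134095082, minus strand), a short, heavily glycosylated peptide anchored to the surface of leukocytes, had the highest fold change of the 10. It was at 50.3, 48.6 and 57.7 CPM in MRL/lpr and 23.5, 22.6 and 18.9 CPM in MRL/mpj. The strains were far apart, and the lowest MRL/lpr library lay well above the highest MRL/mpj library. The means of 52.2 ± 4.88 and 21.7 ± 2.42 CPM differed 2.41-fold (95% interval 2.02 to 2.87), with a log2 fold change of 1.27 (SE 0.11, edgeR adjusted p = 5.6e-05).

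Lgals3 (ENSMUSG00000050335, chr14:47367751-47386160, plus strand) encodes galectin-3, a lectin that binds galactosides on glycoproteins and gathers at damaged lysosomes. Its values were 14.1, 14.3 and 17.8 CPM in MRL/lpr and 8.79, 8.56 and 9.96 CPM in MRL/mpj. The strains were well apart. Lgals3 was 1.69-fold higher in MRL/lpr (95% interval 1.35 to 2.12), with a log2 fold change of 0.76 (SE 0.14, edgeR adjusted p = 0.00515).

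Spp1 (ENSMUSG00000029304, chr5:104435118-104441050, plus strand) encodes osteopontin, a secreted ligand of integrins and CD44. It was at 22.5, 19.2 and 13.6 CPM in MRL/lpr and 28.2, 23.8 and 27.7 CPM in MRL/mpj. The strains did not overlap, with MRL/lpr replicate 3 farthest from MRL/mpj. The log2 fold change was -0.52 (SE 0.17, 95% interval -0.91 to -0.13), and the edgeR adjusted p of 0.0633 missed the threshold. Spp1 passed as lower with scaling by library totals only (-0.64, adjusted p = 0.0388), in DESeq2 (-0.53, adjusted p = 0.0269) and without MRL/lpr replicate 1 (-0.69, adjusted p = 0.0268), within a range of 0.0268 to 0.179 over all alternatives. The unnamed transcript Gm42793 overlaps Spp1 on the same strand and had 41 to 201 counts, against 568 to 1447 for Spp1, so reads of the overlap may have been counted for either.

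Gpnmb and Cst7, which are among the strongest markers of the plaque-associated state, were scarce in both strains. Gpnmb (ENSMUSG00000029816, chr6:49036546-49070929, plus strand), a membrane glycoprotein of late endosomes and lysosomes, had 27, 70 and 62 counts in MRL/lpr and 22, 24 and 62 counts in MRL/mpj. The strains overlapped, and the log2 fold change of 0.75 (SE 0.57) had a 95% interval of -0.52 to 2.03, which leaves changes of either sign possible at this depth (edgeR adjusted p = 0.417). Without 1 library the Gpnmb value ran from 0.49 (without MRL/mpj replicate 1) to 1.37 (without MRL/mpj replicate 3). In every library far more genes had 4 counts (1138 to 1288 genes) than 3 (320 to 415) or 5 (211 to 261), so low counts such as those of Gpnmb may rest on fewer read pairs than their number says. Cst7 (ENSMUSG00000068129, chr2:150570415-150578944, plus strand), which encodes the cathepsin inhibitor cystatin F, was at 2.45, 2.97 and 2.06 CPM in MRL/lpr and 4.24, 2.16 and 3.29 CPM in MRL/mpj. Its strains overlapped too, with a log2 fold change of -0.37 (SE 0.30, 95% interval -1.05 to 0.31, edgeR adjusted p = 0.454), and without 1 library its value ran from -0.60 (without MRL/mpj replicate 2) to -0.13 (without MRL/mpj replicate 1).

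**Figure D2:**
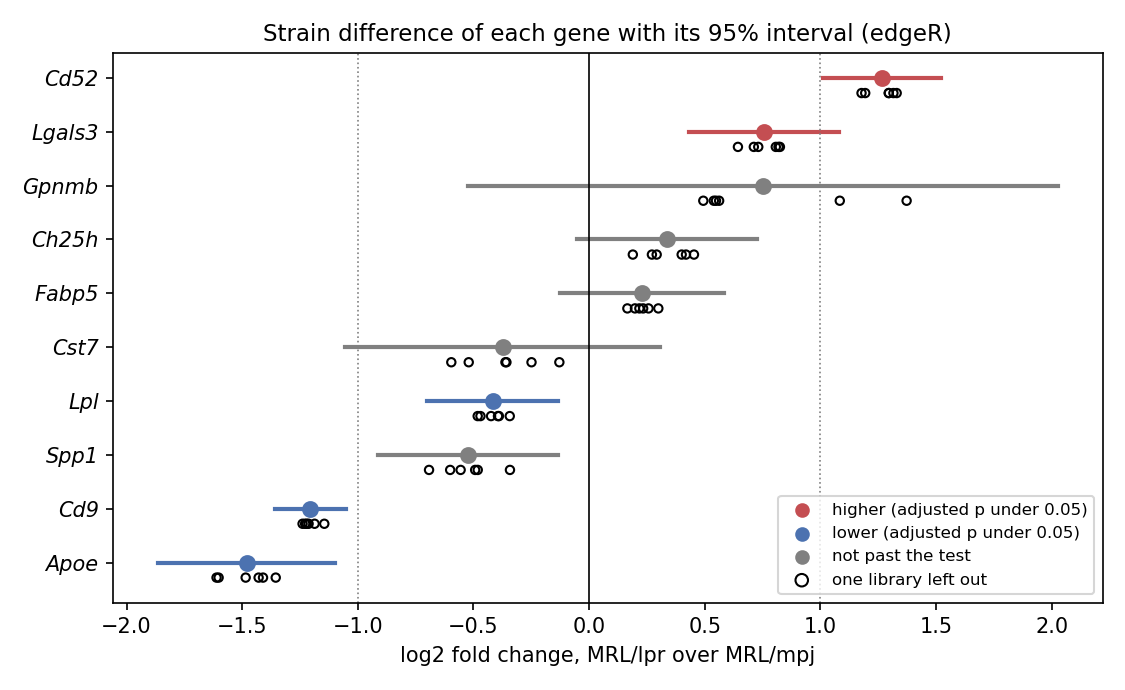
Log2 fold change of each gene, MRL/lpr over MRL/mpj, with the 95% interval from edgeR, and open circles for the fits that leave out 1 library each; dotted lines mark a log2 fold change of 1 in either direction. Cd52 and Lgals3 (red) lie above 0, Apoe, Cd9 and Lpl (blue) below, and the circles of each gene keep the sign of its fold change.

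Compared per transcript length, as deposited FPKM, Apoe led the set in both strains, with 199 ± 30.7 FPKM in MRL/lpr and 605 ± 90.4 FPKM in MRL/mpj. Cd9 came next with 107 ± 10.5 and 268 ± 6.45 FPKM, and Cd52 stood at 37.5 ± 2.30 and 17.0 ± 1.89 FPKM. In MRL/mpj the libraries of Cd52 overlapped those of Spp1 (14.98 ± 1.37 FPKM), while in MRL/lpr Cd52 stood clear of Spp1 (9.60 ± 2.60 FPKM). Lgals3 and Ch25h changed places: Lgals3 had 7.05 ± 0.729 FPKM in MRL/lpr, where it overlapped both Spp1 and Ch25h (6.84 ± 1.30 FPKM), and 4.54 ± 0.374 FPKM in MRL/mpj, below Ch25h at 5.87 ± 0.784 FPKM. At the lower end Cst7, Fabp5, Lpl and Gpnmb followed in that order in both strains, from a mean of 2.16 FPKM for Cst7 to 0.150 ± 0.070 FPKM for Gpnmb in MRL/lpr. Cst7 and Fabp5 overlapped in MRL/lpr.

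Because Apoe and Cd9 were so abundant, they set the summed level of the genes. Together the 10 genes took 0.0771% to 0.0870% of the counts of an MRL/lpr library and 0.190% to 0.232% of those of an MRL/mpj library. Apoe alone made up 51.5% to 62.2% of these counts in MRL/lpr and 63.2% to 69.0% in MRL/mpj, and Cd9 made up between 24.97% and 33.8% in any library. A sum over the set therefore describes these genes and not the other 8. Within a strain, MRL/mpj replicate 2 had the lowest value of its strain for 6 of the 10 genes and the highest for 0, and MRL/mpj replicate 1 had the highest for 6.

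The genes that accompany the set in the same microglial state were also found in both directions. Of 30 other disease-associated microglia genes, 11 were higher in MRL/lpr, 10 were lower and 9 did not pass the test, with a median log2 fold change of -0.13. The lower count was 6 without MRL/lpr replicate 2, MRL/mpj replicate 1 or MRL/mpj replicate 2, and scaling by library totals gave 10 higher and 14 lower. Among all genes tested 11.1% were higher and 9.06% lower, and among those with a mean of 100 to 1000 CPM 25.9% were higher and 9.66% lower. The highest fold changes were those of Clec7a, the receptor dectin-1 for fungal glucans (log2 fold change 1.78, SE 0.16), and Capg, an actin-capping protein (1.69, SE 0.16). Cd83, a surface protein of activated myeloid cells, and the chemokine Ccl3 had log2 fold changes of 1.19 and 0.98. The lowest were those of the adhesion molecule Cadm1 (-1.91, SE 0.11), the integrin chain Itgax or CD11c (-1.72, SE 0.09), the pyrophosphate transporter Ank (-1.63) and Cd63, a tetraspanin of lysosomes and exosomes (-1.13). Clec7a and Itgax, which are both used to mark this state, thus went in opposite directions.

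The receptor of the state was measured well. Trem2 averaged 601 ± 77.1 CPM in MRL/lpr and 590 ± 38.2 CPM in MRL/mpj, with overlapping strains and a log2 fold change of 0.03 (SE 0.09, 95% interval -0.19 to 0.24, edgeR adjusted p = 0.889), a value whose sign turned under other scalings. Tyrobp, which carries its signal, was lower in MRL/lpr by a small amount (log2 fold change -0.35, SE 0.09, edgeR adjusted p = 0.0177). The Tyrobp call was lost when MRL/lpr replicate 1 or 2 or MRL/mpj replicate 1 or 2 was left out (edgeR adjusted p of 0.0672 to 0.0833).

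Of 30 lipid handling genes around Apoe, Lpl, Fabp5 and Ch25h, 28 were tested. Of these 8 were higher, 4 lower and 16 neither, with a median log2 fold change of 0.13. That is 28.6% higher and 14.3% lower, against 11.1% and 9.06% of all genes tested. By level, 12.7% were higher and 11.3% lower among genes with a mean of 10 to 100 CPM. Among genes with a mean of 100 to 1000 CPM, these shares were 25.9% and 9.66%. Scaling by library totals gave 5 higher and 5 lower, 4 were higher without MRL/mpj replicate 1 and 5 without MRL/mpj replicate 3, and 2 were lower without MRL/lpr replicate 2 or MRL/mpj replicate 3. Apoc2, the cofactor that LPL needs, lies 18168 bases from Apoe in the same gene cluster. It had 24, 64 and 49 counts in MRL/lpr and 0 in each MRL/mpj library. That is 17.3-fold higher when 3 counts are taken as the floor in each library. Low counts piled up at 4, above that floor, so this value is not a safe lower bound. Apoc2 had no value in the fit with counts divided by 4. Apoc1, 3449 bases from Apoe, had a log2 fold change of -2.20 (SE 0.79) and did not pass the test (edgeR adjusted p = 0.0842). Apoc2 and Apoc1 had fold changes of opposite sign, of which only that of Apoc2 passed the test, and both genes were at low levels. The LPL inhibitor gene Angptl4 had a log2 fold change of -0.37 (SE 0.15, edgeR adjusted p = 0.122), and passed as lower with scaling by library totals (-0.50, edgeR adjusted p = 0.0414). Gpihbp1, the anchor of LPL on capillaries, had 5 counts in MRL/mpj replicate 1 and 0 in the other libraries.

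Cholesterol genes went both ways. Soat1, which esterifies cholesterol for storage, was lower (log2 fold change -1.05, SE 0.08), and Plin2, the coat protein of lipid droplets, was higher (0.72, SE 0.08). Abca1, which loads cholesterol onto apolipoprotein E, was lower by a log2 fold change of -0.28 (SE 0.06, edgeR adjusted p = 0.0129), and Npc1, which moves cholesterol out of lysosomes, was also at -0.28. The Abca1 call was lost without MRL/lpr replicate 2 (edgeR adjusted p = 0.0520) or MRL/mpj replicate 3 (0.0622), and the Npc1 call without any 1 library other than MRL/lpr replicate 3 (0.0813 to 0.123). Cyp27a1, an enzyme that makes another oxysterol, had a log2 fold change of 0.80 (SE 0.11), and Insig1, which holds back cholesterol synthesis, one of 0.49, a call lost with scaling by library totals (0.37, edgeR adjusted p = 0.0603) and without MRL/mpj replicate 1 (0.0520). Cyp7b1, an enzyme that acts on 25-hydroxycholesterol, was at 0.564 ± 0.256 CPM in MRL/lpr and 0.861 ± 0.140 CPM in MRL/mpj. Its log2 fold change of -0.61 (SE 0.51) did not pass. Fabp7, the brain relative of Fabp5 found in astrocytes and radial glia, was lower (-2.11, SE 0.35) at a level of 0.664 ± 0.197 and 2.88 ± 0.513 CPM.

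Of 20 binding partners and targets of the set, 6 were higher in MRL/lpr, 2 lower and 12 neither, with a median log2 fold change of 0.11. That is 30% higher and 10% lower, against 11.1% and 9.06% of all genes tested, so the lower share was near that of all genes. Among genes with a mean of 100 to 1000 CPM, 25.9% were higher and 9.66% lower, and both shares of the list were near these. Scaling by library totals, and leaving out MRL/lpr replicate 3, each gave 6 higher and 6 lower. Siglecg, a sialic acid receptor related to a proposed human partner of CD52, had the highest log2 fold change (2.15, SE 0.15), with 18.5 ± 0.736 CPM in MRL/lpr and 4.15 ± 0.521 CPM in MRL/mpj. Lgals3bp, a secreted glycoprotein bound by galectin-3, followed (1.42, SE 0.19). Among receptors of osteopontin, the integrin chain Itga4 (1.21, SE 0.13) and Cd44 (0.74, SE 0.12) were higher, and Itgav was at -0.66 (SE 0.19, edgeR adjusted p = 0.0511). Itgav passed as lower with scaling by library totals (edgeR adjusted p = 0.0271), in DESeq2 (adjusted p = 0.000609) and without MRL/mpj replicate 3 (-0.87, edgeR adjusted p = 0.00135). Sdc4, a heparan sulfate proteoglycan that GPNMB binds on T cells, had a log2 fold change of 0.98. Gpr183, whose ligands are made from 25-hydroxycholesterol, was higher by 0.55 on the log2 scale (SE 0.08, edgeR adjusted p = 0.00132). Ptgfrn, a direct partner of CD9, was lower as Cd9 was (-0.93, SE 0.09), whereas its relative Igsf8 and the tetraspanin Cd81 had log2 fold changes of 0.16 and 0.13 and did not pass. Mitf, a transcription factor that drives Gpnmb in several cell types, was lower (-0.47, SE 0.10), and Ctsc, a cathepsin that cystatin F restrains, was at -0.25 (edgeR adjusted p = 0.0513) and passed as lower with scaling by library totals (0.0202), in DESeq2 (0.0383) and without MRL/lpr replicate 1 (0.0448) or 3 (0.0272).

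Of 20 homeostatic microglia genes, 4 were higher, 6 lower and 10 neither, with a median log2 fold change of -0.08. That is 20% higher and 30% lower, against 11.1% and 9.06% of all genes tested. These shares differed by level. Among genes with a mean of 100 to 1000 CPM 25.9% were higher and 9.66% lower, and from 1000 CPM 44.8% and 17.7%. The higher share of this list was thus below that of genes at such levels. Scaling by library totals gave 3 higher and 9 lower. The scavenger-like receptor Fcrls had a log2 fold change of -1.76 (SE 0.06), followed by the receptor Gpr34 (-0.48), the secreted cystatin Cst3 (-0.40) and the matrix protein Sparc (-0.39). The small GTPase Rhob (0.66), the membrane-bending protein Bin1 (0.39) and the fructose transporter Slc2a5 (0.32) were higher. The Slc2a5 call was lost with scaling by library totals (0.19, edgeR adjusted p = 0.0875) and without any 1 of the MRL/mpj libraries (edgeR adjusted p of 0.0556 to 0.0976). Summed over the list, the level was 52445 to 56304 CPM in MRL/lpr and 57622 to 59867 CPM in MRL/mpj, a ratio of 0.927, beside ratios of 0.358 for Apoe and 0.434 for Cd9.

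**Figure D3:**
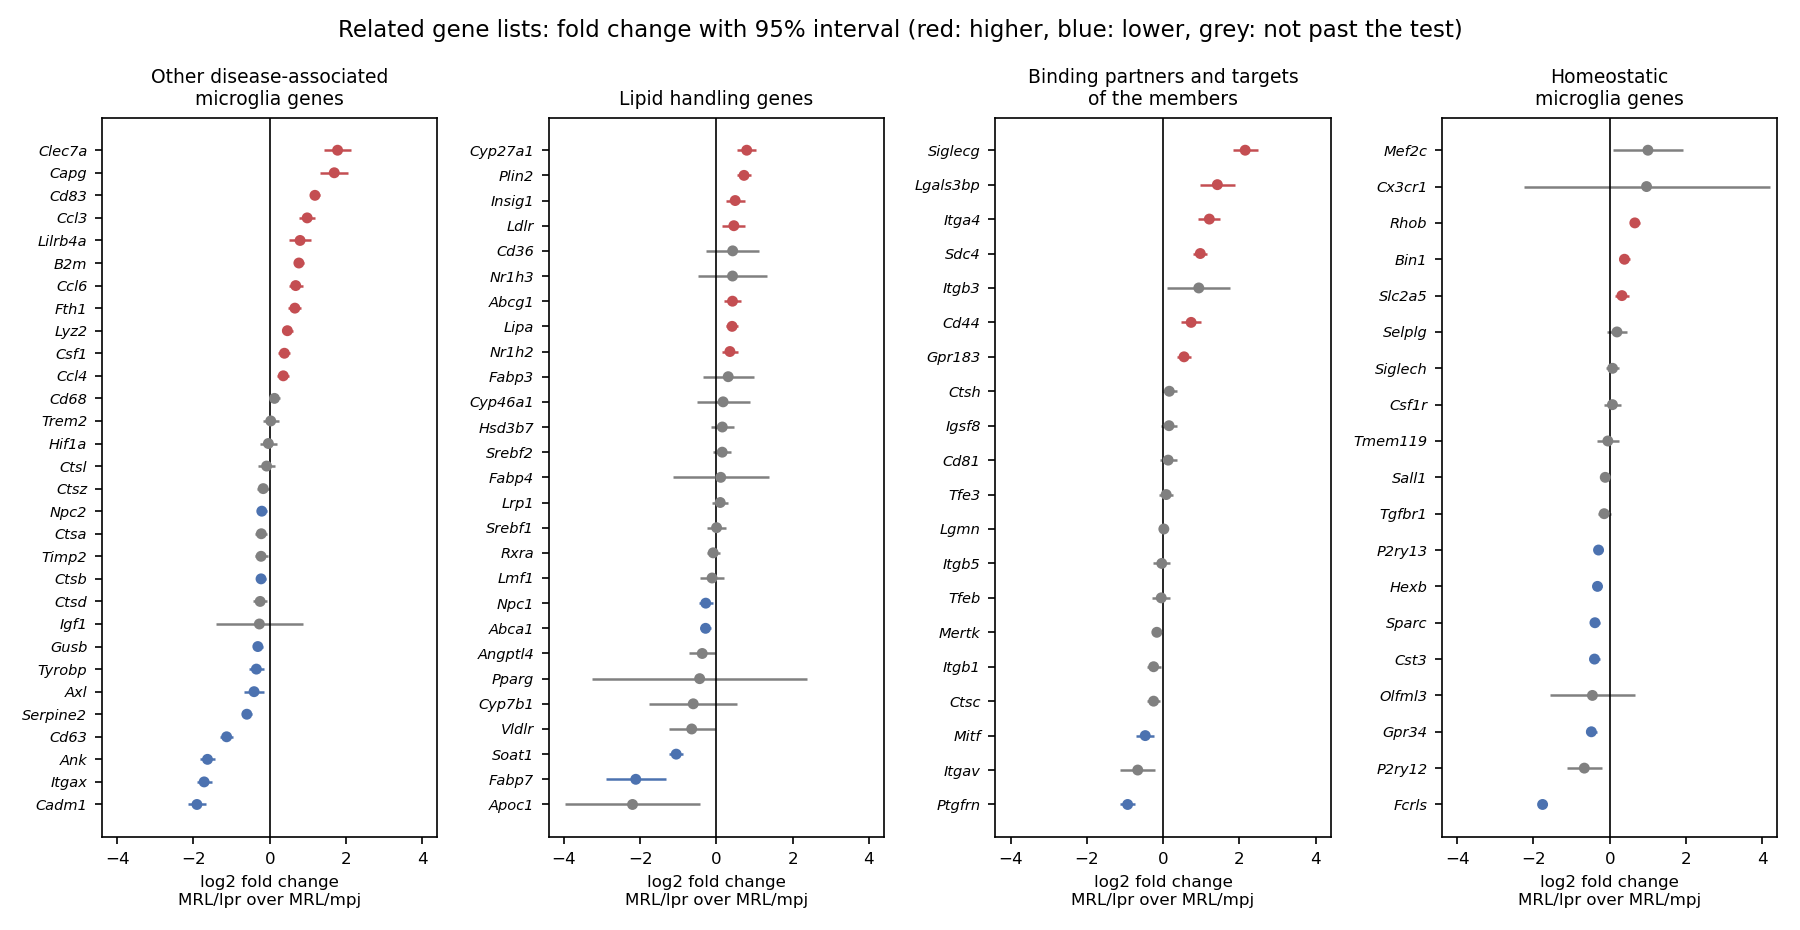
Log2 fold change, MRL/lpr over MRL/mpj, of the genes of the 4 related lists, with 95% intervals from edgeR, in red where higher, blue where lower and grey where the test was not passed. Genes that were not tested, Apoc2, which was at 0 in MRL/mpj, and 1 homeostatic gene are not drawn; each list holds genes on both sides of 0.

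Markers of other cells were read beside these results, because CD11b is not particular to microglia and several of the 10 genes are made by other cells. Of all genes tested, 11.1% were higher and 9.06% lower in MRL/lpr. Choroid plexus and ependymal genes were lower in MRL/lpr: 6 of 10 were lower and 0 higher, and their summed level was 372 to 383 CPM in MRL/lpr against 1077 to 1159 CPM in MRL/mpj, with Ttr at a log2 fold change of -1.64 and Kl at -1.40. Astrocytes, which make much of the apolipoprotein E of the brain, had 1 of 10 marker genes lower and 0 higher, a share near the 9.06% of all genes, and a summed level of 122 to 169 against 203 to 210 CPM. Slc1a3, the lower gene, was at -0.98, a call lost without MRL/lpr replicate 3 or any 1 MRL/mpj library (edgeR adjusted p of 0.0689 to 0.146), and Gja1 at 0.10, the latter not past the test and of a sign that turned under other scaling. Oligodendrocyte lineage genes, whose cells express Cd9, had 4 of 11 lower and 0 higher, at 139 to 166 against 186 to 219 CPM, with Mbp at -0.07 and Cnp at 0.19, neither past the test. Neuronal genes had 2 of 10 lower and 0 higher, at 28.9 to 33.4 against 48.5 to 55.5 CPM. Snap25 was at -1.35 and Stmn2 at -0.28, the latter not past the test (edgeR adjusted p = 0.177). The summed levels of these lists were lower in MRL/lpr, as those of Apoe and Cd9 were, and their part in those differences was not tested.

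Lists of blood-derived cells, border macrophages, and endothelial cells and pericytes were read beside Cd52 and Lgals3, which are abundant in monocytes, neutrophils or lymphocytes. The summed levels of these lists, scaled by TMM, were higher in MRL/lpr, that of border macrophages through Ccr1 only. Lymphocyte and plasma cell genes had 8 of 16 tested genes higher and 0 lower, beside 11.1% higher and 9.06% lower among all genes tested. Their summed level was 45.4 to 52.0 CPM in MRL/lpr against 19.0 to 19.3 CPM in MRL/mpj. Jchain, the joining chain of secreted antibodies, had a log2 fold change of 3.66, and the B cell gene Cd79b one of -0.30, not past the test. Monocyte and neutrophil genes had 6 of 14 higher and 1 lower, at 1193 to 1373 against 1073 to 1112 CPM, with Fn1 at 0.09, not past the test and of a sign that turned under other scaling, and the neutrophil granule gene Ngp at 0.40. Border macrophage genes did not move as a group, with 2 of 12 higher and 2 lower. Their sum of 141 to 156 against 72.1 to 84.8 CPM rested on the chemokine receptor Ccr1 (log2 fold change 2.81), since the other 11 genes summed to 60.5 to 63.3 CPM in MRL/lpr and 60.4 to 71.8 CPM in MRL/mpj, a sum taken after the values were seen. Mrc1, the mannose receptor of border macrophages, was at -0.39 (edgeR adjusted p = 0.0443), a call lost in each fit without 1 library (0.0614 to 0.159). Endothelial and pericyte genes had 2 of 10 higher and 2 lower, at 1915 to 2136 against 1836 to 1884 CPM. Flt1 was at 0.36 and Slco1a4 at 0.14, the latter not past the test. The TMM factors were 0.920 to 0.978 in MRL/lpr and 1.04 to 1.05 in MRL/mpj. A gap as small as that of the endothelial and pericyte sum depends on this scaling. No list had a gene at 0 in all 6 libraries, and the part of these cells in the levels of Cd52 and Lgals3 was not tested.

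**Figure D4:**
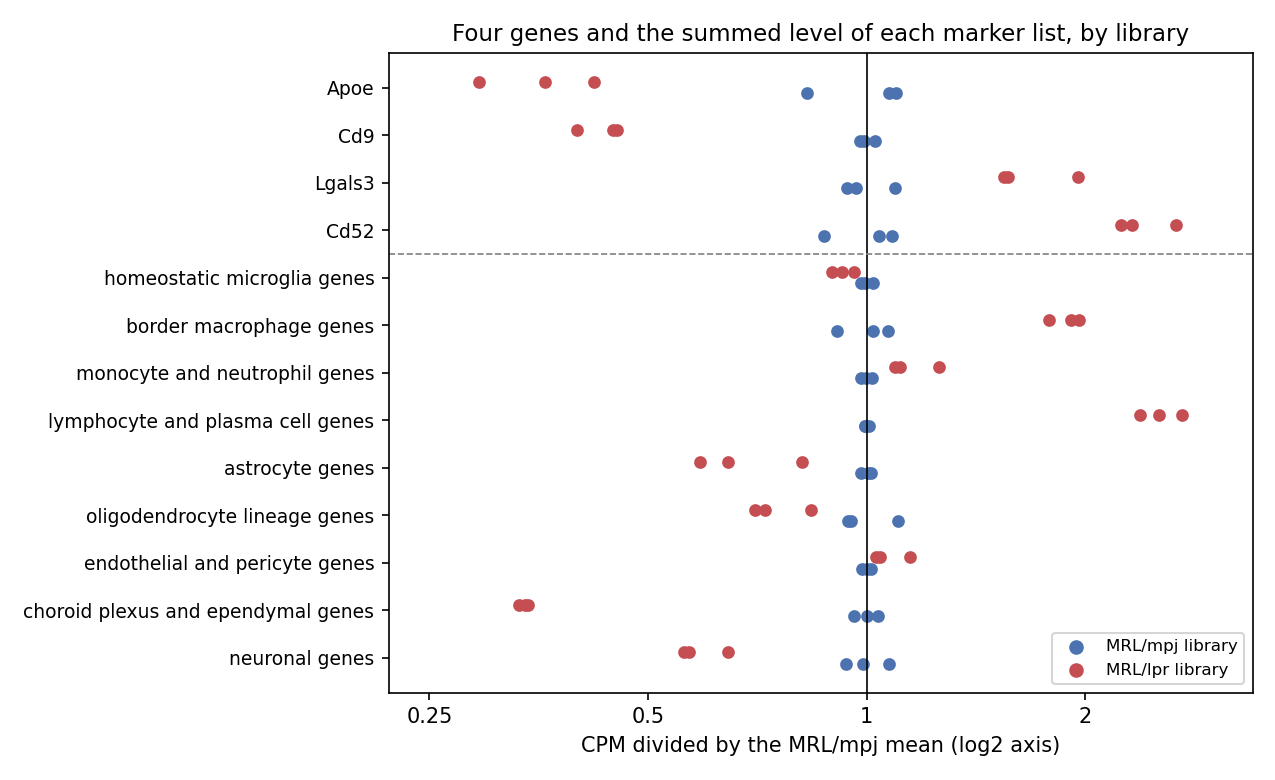
TMM-scaled level in each library of Apoe, Cd9, Lgals3 and Cd52, and of the summed genes of each marker list. Each is divided by the mean of the MRL/mpj libraries, on a log2 axis, with MRL/mpj in blue and MRL/lpr in red. Apoe and Cd9 lie below 1 in MRL/lpr with the choroid plexus, astrocyte, oligodendrocyte and neuronal lists. Lgals3 and Cd52 lie above 1 with the lymphocyte list and the border macrophage list, whose sum rests on Ccr1. Nearer to 1 lie the homeostatic list below it (ratio of means 0.927), and above it the monocyte and neutrophil list (1.15) and the endothelial and pericyte list (1.07).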

How the data were processed

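CD11b-selected brain cells of 3 MRL/lpr and 3 MRL/mpj preparations were sequenced as paired reads. The labels describe removal of ribosomal RNA and a stranded total RNA kit, whereas the study's methods describe purified mRNA. The submitters' processing notes name cutadapt 1.9.3, HISAT2 2.0.4, Cuffdiff 2.2.1, Cufflinks and GRCm38; the counting tool, its strand setting and the annotation are not given in the sources used here. The authors deposited raw integer counts of every gene, and the FPKM that they derived for each library. Symbols and coordinates were taken from GENCODE M21 (GRCm38), where 55141 of 55401 identifiers were found.

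Counts were filtered with filterByExpr (minimum count 10, minimum total 15), scaled by TMM and tested across all 19554 remaining genes with edgeR 4.0.16 in R 4.3.3 (quasi-likelihood test, robust dispersions, no covariates, Benjamini-Hochberg adjustment). The fitted common coefficient of biological variation was 0.26. Calls were made at an adjusted p under 0.05. Intervals on fold changes are at 95% and come from the same fit. No 2 libraries were identical or within sampling noise of each other. With 3 libraries against 3, an exact permutation test cannot give a p under 0.1, so none was used.

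The genes and lists were chosen with earlier results of these data known, so no list is independent evidence and no list was tested. Named genes are the 10 genes, in each related list up to 4 called genes with the largest fold change in each direction, known partners of a member, and the 2 most abundant genes of each marker list; Fas, Xist, Csf1r, Tmem119, Apoc1, Cd81 and overlapping transcripts were named outside this rule, with their values known. The rule also covers 1 homeostatic gene that is left out of the text. The alternatives were DESeq2 1.42.0, other scalings, no count filter, dispersions that are not robust, counts divided by 4, limma 3.58.1 on log2(FPKM + 0.1) and log2(FPKM + 1), a replicate block, an adjusted p under 0.01 and each library left out. The steps were tested on simulated data.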

Additional observations from a re-analysis of the deposited data

How the results depend on the processing

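Apoe, Cd9, Lgals3 and Cd52 kept their direction and their call in all 15 alternative fits, with log2 fold changes of -1.61 to -1.36, -1.33 to -1.15, 0.54 to 0.83 and 1.10 to 1.33. Lpl missed the threshold without the count filter (-0.42), with limma on log2(FPKM + 0.1) (-0.50) and on log2(FPKM + 1) (-0.29), with the replicate block (-0.42) and in each fit without 1 library (-0.48 to -0.34). Spp1 passed with scaling by library size only (-0.64), with DESeq2 (-0.53) and without MRL/lpr replicate 1, over a range of -0.69 to -0.34 in fits without 1 library. Gpnmb, Cst7, Fabp5 and Ch25h passed in no fit.

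The replicate numbers did not pair the libraries (correlations of same-numbered deviations -0.05, -0.03 and -0.06, and no library correlated best with its own number). With the replicate block 1754 genes were higher and 1309 lower.

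Scaled by library size only, the data gave 2790 lower genes among all genes, 5 lipid handling genes were higher and 6 partners were lower. DESeq2 called 5 partners lower, limma on log2(FPKM + 0.1) called 4 lipid handling genes higher and 6 partners lower, and limma on log2(FPKM + 1) gave the same counts of 4 and 6. At an adjusted p under 0.01, 1381 genes were higher and 926 lower. In fits without 1 library, 1177 (without MRL/mpj replicate 1) to 1971 (without MRL/lpr replicate 3) genes were lower among all genes, 6 to 14 of the other disease-associated genes were lower, 4 to 8 lipid handling genes were higher and 2 to 4 lower, and 2 to 6 partners were lower. Among named genes outside the set, signs turned for Trem2 with scaling by library size only (-0.10), with both FPKM fits (-0.10 and -0.10) and in fits without 1 library (-0.078 to 0.097). They turned for Fn1 with scaling by library size only and both FPKM fits (-0.032, -0.029 and -0.028), for Gja1 with scaling by library size only (-0.022) and in fits without 1 library (-0.10 to 0.21), and for Mbp in the latter (-0.16 to 0.056). None of these 4 passed the test in the fits named. Over the fits of the named genes outside the set, 756 values kept their direction and side of the threshold, 35 lost a call, 22 gained one and 11 changed sign. With the replicate block, calls were lost for Tyrobp (adjusted p = 0.0624), Slc2a5 (0.0547) and Mrc1 (0.0535) and gained for Itgav (0.0166). The cause of these shifts was not tested. With 3 libraries for each strain, intervals as wide as that of Gpnmb leave small changes undetectable.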
